A study of Anas platyrhynchos with 8 samples.

Results

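The 8 libraries of abdominal fat were divided by transcripts of the female-specific chromosome W, and the members of each side were chosen by these measured counts. Counts were added up over the 8 rows of the mRNA table whose description names Wpkci or a W-linked gene, and 5 of 8 libraries held a sum of 100 or more. These were all 4 libraries of ducks with a high abdominal fat ratio (HF-1 to HF-4) and 1 of the 4 with a low ratio (LF-4). The other 3 libraries, LF-1 to LF-3, lay below. All ducks (Anas platyrhynchos) came from an F2 population, were reared under one regime and were sampled at day 42 after birth. The labels name no strain, sex, treatment, batch or pooling of birds. They also do not say that the libraries of a group are separate birds, and p-values therefore speak of the spread among the 8 samples alone, which may be technical. The fat group overlaps the split, so that the HF libraries and LF-1 to LF-3 differ in both, and LF-4 is the single library that separates them.

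In birds the female carries one Z and one W chromosome and the male a pair of Z chromosomes. W is a degenerate partner of Z that keeps copies of a small set of Z genes, many of which act in transcription, protein turnover and signalling. Birds lack a chromosome-wide mechanism that equalises Z between the sexes, so many Z genes are known to be expressed at a lower level in females, to a degree that differs from gene to gene. Wpkci, also called HINTW, is a W gene of altered and amplified copies of the Z gene HINT1. Sex is not in the labels, and the libraries are called here with or without W transcripts.

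In HF-1 to HF-4 the W-described rows summed to 4226, 1818, 3410 and 2846 estimated counts, and in LF-4 to 2861. They held 8, 7 and 3 counts in LF-1 to LF-3. The libraries nearest to the threshold were thus HF-2, at 1818 counts, and LF-1, at 8. As CPM, counts relative to a fixed total per library, of the mRNA table these sums came to 173, 137, 153 and 131 in HF-1 to HF-4, and 110 in LF-4. In LF-1 to LF-3 they were 0.630, 0.227 and 0.141. Of the 8 rows, 6 were described as Wpkci. The largest of them held between 1034 and 2387 counts in HF, 1103 in LF-4 and 6, 6 and 3 counts in LF-1 to LF-3. The row of the W-linked RAS regulator RASA1 held 94.3, 77.3, 78 and 6.56 counts in the HF libraries, 86.1 in LF-4 and at most 1 elsewhere. That of W-linked KCMF1, a ubiquitin ligase, held between 22 and 50 counts in the 5 libraries and 0 in the other 3. These rows chose the libraries, so their values describe the split and are not tested. They were left out of all sums below.

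The split extended to other transcripts. Of 19737 mRNA transcripts with at least 10 counts in every library of one side, 78 (0.395%) were seen only with W transcripts, meaning that their CPM on the other side stayed more than 10-fold below. The reverse was found for 21 (0.106%). Of the 78, 46 were at 0 in all of LF-1 to LF-3. The RefSeq gene table of assembly IASCAAS_PekinDuck_T2T places 11 of the 78 on W by their accession, and 51 bear the symbol of a gene on Z. These 11 belong to UBQLN1, GOLPH3, GPBP1, SPINZ, SMAD7, MIER3, BTF3 and IER3IP1. Since such transcripts share the chromosome that chose the libraries, they too are given as description, with names picked after their values were seen.

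The most abundant of them belonged to VCP, the ATPase that extracts ubiquitinated proteins. That transcript held 2927, 1417, 2827 and 2828 counts in HF, 2780 in LF-4 and 5.01, 5 and 4.01 in the 3 LF libraries without W transcripts. A transcript of NIPBL, which loads cohesin onto chromosomes, held 1241, 1013, 1122 and 1105 counts in HF, 1702 in LF-4 and 0 in each of the other 3. One of RPL37, a protein of the large ribosomal subunit, held 1629, 696, 1187 and 1229 counts in HF, 2989 in LF-4 and 2, 0 and 2 without W transcripts. In all of these LF-4 stood with the HF libraries. One transcript of RASA1 held 974, 700, 825 and 967 counts in HF, 1631 in LF-4 and 2, 4 and 1 without. A transcript of SMAD2, which carries activin and TGF-beta signals to the nucleus, held 631, 267, 482 and 510 counts in HF, 662 in LF-4 and 1, 10.01 and 4 without.

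Transcripts whose symbol lies on chromosomes other than Z and W numbered 14 of the 78. MFN2, a gene of mitochondrial fusion on chromosome 22, had a transcript with 572, 158, 96.7 and 672 counts in HF, 501 in LF-4 and 0 in LF-1 to LF-3. Its summed level was 304 CPM on average with and 243 without W transcripts (edgeR adjusted p = 0.659). All 14 such sums were tested, and 0 passed an adjusted p of 0.05, where 0.14% of all genes tested did. FBXO21, a ubiquitin ligase subunit on chromosome 16, had a transcript with 450, 604 and 390 counts in LF-1 to LF-3 and 0 in the other 5 libraries. Its summed level was 39.3 CPM with and 51.6 CPM without W transcripts (edgeR adjusted p = 0.603). Of the symbols of such transcripts, 19 were tested as sums, of which 0 passed. At so small a share over all genes, 0 of 14 and 0 of 19 say nothing about these genes.

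Long noncoding RNAs divided in the same way. Of 846 lncRNA transcripts with at least 10 counts throughout one side, 22 (2.6%) were seen only with W transcripts and 2 (0.236%) only without. TCONS_00070945, an assembled model with no symbol, held 2793, 2219, 1482 and 2102 counts in the HF libraries, 1922 in LF-4 and 9, 8 and 1 in the 3 without. In edgeR's quasi-likelihood test over 1464 lncRNAs 26 (1.78%) passed, 24 higher (1.64%) and 2 lower (0.137%) with W transcripts. Of the 26, 24 were among those seen on one side only. Such transcripts follow the split by which the libraries were chosen, so their calls and p-values describe it and support nothing further. XR_003493767.1 stood at 39.5, 47.9, 35.2 and 52.2 CPM in HF, 38.4 in LF-4 and 0.305, 0.202 and 0.181 in the 3 LF libraries without W transcripts (edgeR adjusted p = 1.53e-05). XR_001190902.3, one of the 2 that were lower, stood at 1.52, 1.38 and 1.94 CPM in LF-1 to LF-3 and at 0 in all 5 others (edgeR adjusted p = 0.0164). The table places 1 of the 26 on W and none of the other 25.

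**Figure D1:**
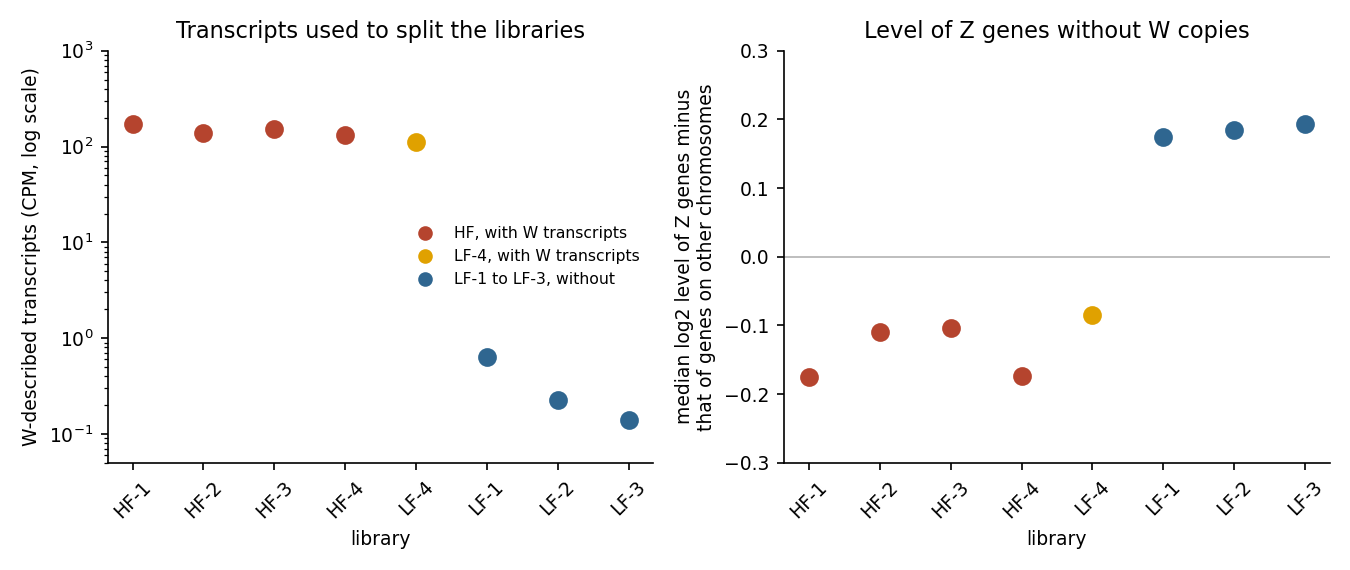
Left, CPM of the 8 W-described rows in each library on a log scale, from 110 to 173 with W transcripts and from 0.141 to 0.630 without. Right, the median log2 level of genes on Z with no W copy seen here, minus the same median for genes on other chromosomes. Each gene was centred on its mean over libraries. The 3 libraries without W transcripts lie between 0.174 and 0.194 and the other 5 below 0, with LF-4 (yellow) the highest of these at -0.085.

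Genes on chromosome Z were lower in the libraries with W transcripts, by a modest median and with wide spread between genes. Of 10690 genes tested as sums over their transcripts, 9485 (88.7%) could be placed, 478 of them on Z. For 446 of these no transcript was seen only with W and none is placed on W under the same symbol. They are called Z genes without W copies here, which means only that no W copy was seen under the symbol. HINT1 stayed among the 446, since its W-described rows had been left out of its sum. Other genes listed below as having W copies in birds stayed too, among them ZNF532, TXNL1, NEDD4L, RPL17, ARRDC3, ELAVL2, MEF2C and TLE4. Over the 446 genes the median log2 fold change, with minus without W transcripts, was -0.275, a ratio of 0.826, and the middle 50% of genes lay between -0.562 and 0.046. Over 9005 genes on other chromosomes the median was 0.0204. Of the 446, 71.3% were below 0, 29.6% below -0.5 and 2.47% below -1, against 46.6%, 6.14% and 1.47% elsewhere. The Z genes share libraries and scaling, so no p is given for these medians.

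LF-4 stood with the HF libraries in this measure. Each library's Z level was taken as the median log2 CPM, centred on each gene's mean, over 420 Z genes minus that over 8521 others. It was -0.175, -0.11, -0.104 and -0.174 in HF-1 to HF-4 and -0.085 in LF-4. It was 0.174, 0.185 and 0.194 in LF-1 to LF-3. The 2 sides did not overlap, with -0.13 ± 0.042 (SD, n = 5) against 0.184 ± 0.0101 (SD, n = 3). Within LF alone, LF-4 against LF-1 to LF-3 gave a median of -0.314 for the Z genes without W copies and of -0.0311 for genes elsewhere. HF against LF-1 to LF-3 gave -0.30 and 0.0101. HF against LF-4, which all hold W transcripts, gave -0.0051 and 0.0356. These 3 comparisons share libraries and are set side by side only.

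Z was the lowest of the 30 chromosomes with at least 50 tested genes, at -0.242 over all its 478 genes. The next was chromosome 26, at -0.199 over 67 genes, and the others lay between -0.0173 and 0.0814. The 2 lowest differed in how LF-4 stood. On Z, LF-4 was at -0.281 against LF-1 to LF-3 and HF at -0.012 against LF-4. On chromosome 26 these were -0.375 and 0.22, so that HF and LF-4 differed there. On chromosome 34, with 70 genes, LF-4 was at -0.402 against LF-1 to LF-3 and HF at 0.491 against LF-4, and the split as a whole was at 0.029.

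**Figure D2:**
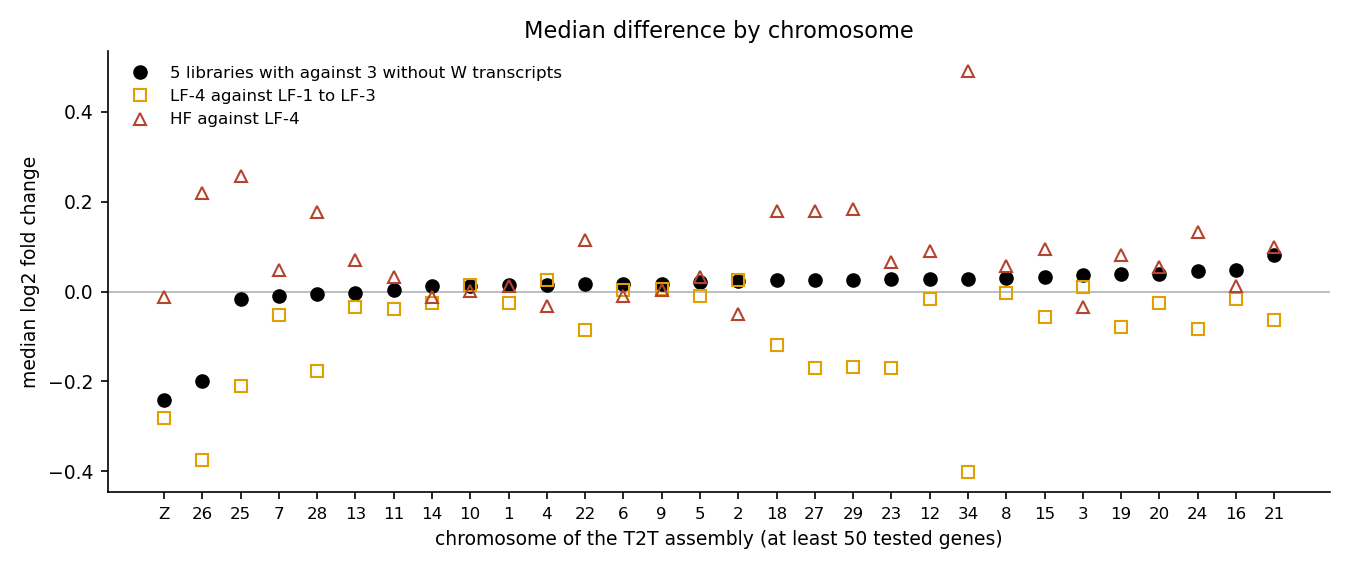
Median log2 fold change of the tested genes of each chromosome, for the 5 libraries with against the 3 without W transcripts (black), LF-4 against LF-1 to LF-3 (yellow squares) and HF against LF-4 (red triangles). Chromosomes are ordered by the black points. On Z the first 2 medians are -0.242 and -0.281 and that of HF against LF-4 is -0.012, while chromosome 26 has -0.199, -0.375 and 0.22.

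The fall was uneven along Z. Ordered by position and divided into 10 bins of 44 or 45 genes, the 446 genes had medians from -0.0218 to -0.584. The first bin, which starts at LMAN1, had -0.0218, with 21 of 45 genes above 0. The last, from RNF20 to TOMM5, had -0.584, with 5 of 44 above 0. The 8 between lay from -0.191 to -0.352. Of genes listed as having W copies in birds, the first bin held ZNF532, TXNL1, NEDD4L and RPL17, and the last ARRDC3 and MEF2C. In LF-4 against LF-1 to LF-3 the first and last bins were at -0.0126 and -0.48, and the lowest was the eighth at -0.502. The end bins were, in HF against LF-4, at 0.0303 and -0.185. By mean expression, 149 Z genes at up to 11.1 CPM had a median of -0.198, 148 between 11.3 and 39.9 CPM one of -0.359 and 149 at 40.1 CPM or more one of -0.249.

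**Figure D3:**
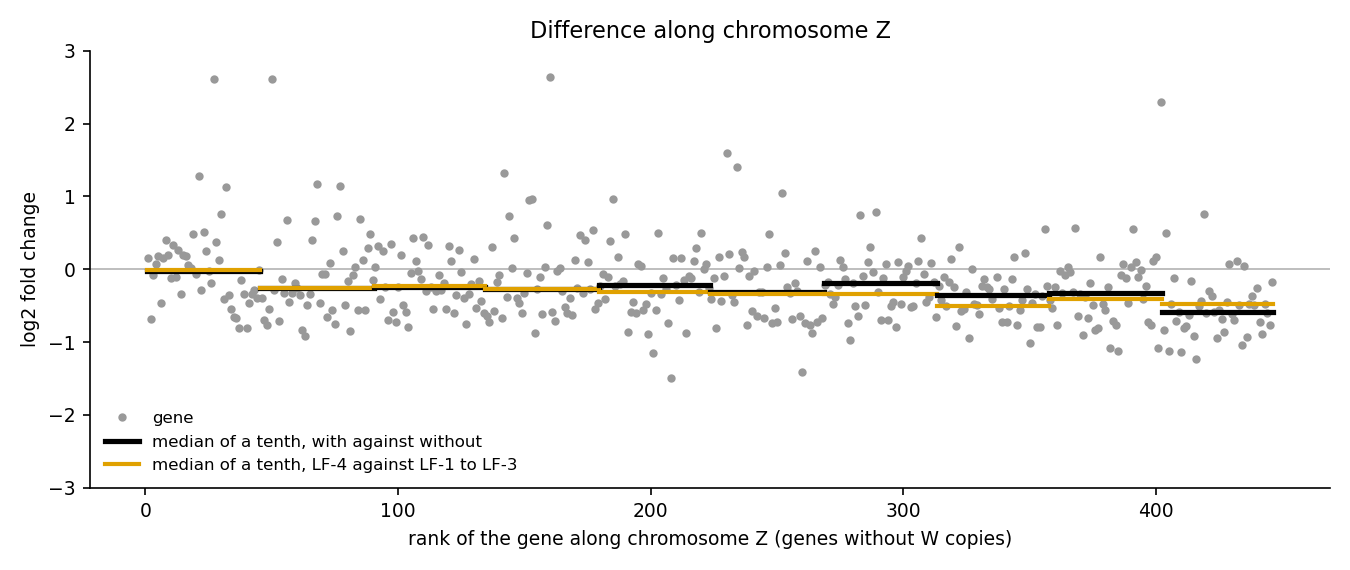
Log2 fold change, with against without W transcripts, of 446 Z genes with no W copy seen here, in their order along the chromosome (grey). Of these, 1 gene lies outside the axis, GRAMD2B, at 6.34 in the split and 6.71 in LF-4 against LF-1 to LF-3. Black bars give the median of each of 10 bins and yellow bars that of LF-4 against LF-1 to LF-3. The first bin is at -0.0218 and the last at -0.584 (black), and at -0.0126 and -0.48 (yellow).

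Few single Z genes passed the test. In edgeR's quasi-likelihood test of 5 against 3 libraries, 15 of 10690 genes passed an adjusted p of 0.05 (0.14%), 11 higher (0.103%) and 4 lower (0.0374%) with W transcripts. At an unadjusted p under 0.05 there were 806 (7.54%). Of the 446 Z genes without W copies 2 passed, both lower. Without overlap between the sides were 121 of the 446 (27.1%), 111 lower and 10 higher, against 5.13% of all genes tested (2.88% lower, 2.25% higher) and 3.9% of those elsewhere. ERAP1 trims peptides in the endoplasmic reticulum for display on MHC class I molecules. It stood at 59.7, 59.4, 61.8 and 57.8 CPM in HF-1 to HF-4, 58.0 in LF-4 and 98, 122 and 118 without W transcripts. The 5 libraries with W transcripts lay close together, all below the other 3. Its log2 fold change was -0.93 ± 0.111 (SE), 1.9-fold lower with W transcripts (edgeR adjusted p = 0.0129), and LF-4 alone was at -0.96 ± 0.182 against LF-1 to LF-3 (edgeR adjusted p = 0.173). ERAP1 did not pass without HF-1, HF-4, LF-2 or LF-3.

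The Z genes next in order of p did not pass. SMU1, a splicing factor, stood at 57.4, 57.0, 59.0 and 56.4 CPM in HF, 64.9 in LF-4 and 95.5, 92.2 and 92.8 in the 3 LF libraries without W transcripts (edgeR adjusted p = 0.0611). The ubiquitin ligase TRIM23 had a log2 fold change of -0.75 ± 0.122 and POLR1E, a subunit of RNA polymerase I, of -0.88 ± 0.148 (edgeR adjusted p = 0.0758 and 0.0867). All 3 passed without LF-4, a fit in which fat group and W transcripts cannot be told apart.

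Another tool and another set of libraries gave more calls. DESeq2 called 140 genes (53 higher, 87 lower), among which were 53 lower and 3 higher of the 446 Z genes without W copies, and 31 higher and 24 lower of the 9005 genes elsewhere. edgeR without LF-4 called 91 (36 higher, 55 lower), of which 1 higher and 26 lower were among 441 such Z genes and 20 higher and 19 lower lay elsewhere. Without other single libraries edgeR's count was 6 (HF-1), 13 (HF-2), 11 (HF-3), 9 (HF-4), 4 (LF-1), 5 (LF-2) and 1 (LF-3).

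Z genes that were picked for their roles after their values were seen ran in both directions. ITGA1, a collagen receptor, stood at 290, 304, 237 and 339 CPM in HF, 319 in LF-4 and 505, 431 and 514 without W transcripts (log2 fold change -0.70 ± 0.146, edgeR adjusted p = 0.169). FAM169A went the other way, with 2.36, 3.65, 3.95 and 3.17 CPM in HF, 1.58 in LF-4 and 0.321, 0.707 and 0.324 in the 3 without (log2 fold change 2.64 ± 0.481, edgeR adjusted p = 0.13). Neither overlapped between the sides and neither passed. In other Z genes LF-4 left the HF libraries. HOMER1, a postsynaptic scaffold, stood at 7.34, 6.06, 11.1 and 12.8 CPM in HF, 3.69 in LF-4 and 3.54, 3.03 and 3.24 in the 3 LF libraries without W transcripts. GHR, the growth hormone receptor, stood at 572, 489, 421 and 540 CPM in HF, 806 in LF-4 and 862, 864 and 765 without W transcripts, with LF-4 inside the range of the other LF libraries. RPS23, a protein of the small ribosomal subunit, stood at 32.9, 27.8, 26.5 and 33.3 CPM in HF, 55.9 in LF-4 and 73.8, 93.5 and 80.2 without. LF-4 lay between the 2 groups for RPS23 (log2 fold change of the split -1.22 ± 0.236, edgeR adjusted p = 0.138, and 0.00503 without LF-4).

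Z genes that have transcripts seen only with W behaved differently once these transcripts were counted. There were 30 such symbols on Z. For 23 of them the other transcripts of the symbol reached 10 CPM on average without W, here as CPM of the mRNA table without TMM scaling. That minimum was set on the side without W transcripts, so the ratios and counts of the 23 are in part fixed by it. They are a description only. Below the minimum, the ratio of other transcripts, with to without W transcripts, was 1.25 in DNAJB5, 1.58 in HNRNPK and 1.07 in STOML2. It was 1.11 in SUB1 and 0.607 in RPL37, while IER3IP1 and TESK1 had none. In the 23, the level of other transcripts was lower with W transcripts in 19, with a median ratio of 0.8 (0.545 to 1.26), and 10 did not overlap and were lower. Over all genes tested 2.88% were lower without overlap, though as sums of all transcripts in TMM-scaled CPM. With the transcripts seen only with W added, the median ratio was 1.13 (0.707 to 2.05), 8 below and 15 above 1. The ratio of the added levels was fixed in part by how these genes were chosen, so it is a description. The deposited values are estimates that need not be whole, and near-identical Z and W copies may have exchanged reads, so the division within a symbol is uncertain.

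VCP had other transcripts at 223 ± 22.5 CPM with (SD, n = 5) and 352 ± 28.8 without W transcripts (SD, n = 3), of which LF-4 held 200.2. Those seen only with W added 118 ± 10.6 CPM, and the sums were 341 and 352 CPM. ZNF131, a zinc-finger factor, had other transcripts at 13.9 against 25.5 CPM, and with 15.2 CPM of W transcripts the sums were 29.1 and 25.6. SMAD2 had 58.3 against 77.5 CPM and sums of 81.6 and 77.6. The sums of these 3 stood at ratios of 0.969, 1.14 and 1.05. For NIPBL the sums were 265 and 303 CPM, with other transcripts at 206 and 303. CHD1, a chromatin remodeller used for sexing birds, had other transcripts at 45.4 and 74.8 CPM and 19.0 CPM of transcripts seen only with W. In RASA1 the added transcripts came to 47.4 beside 48.8 CPM, and in UBQLN1, a shuttle of ubiquitinated proteins, to 82.8 beside 53.0 CPM.

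**Figure D4:**
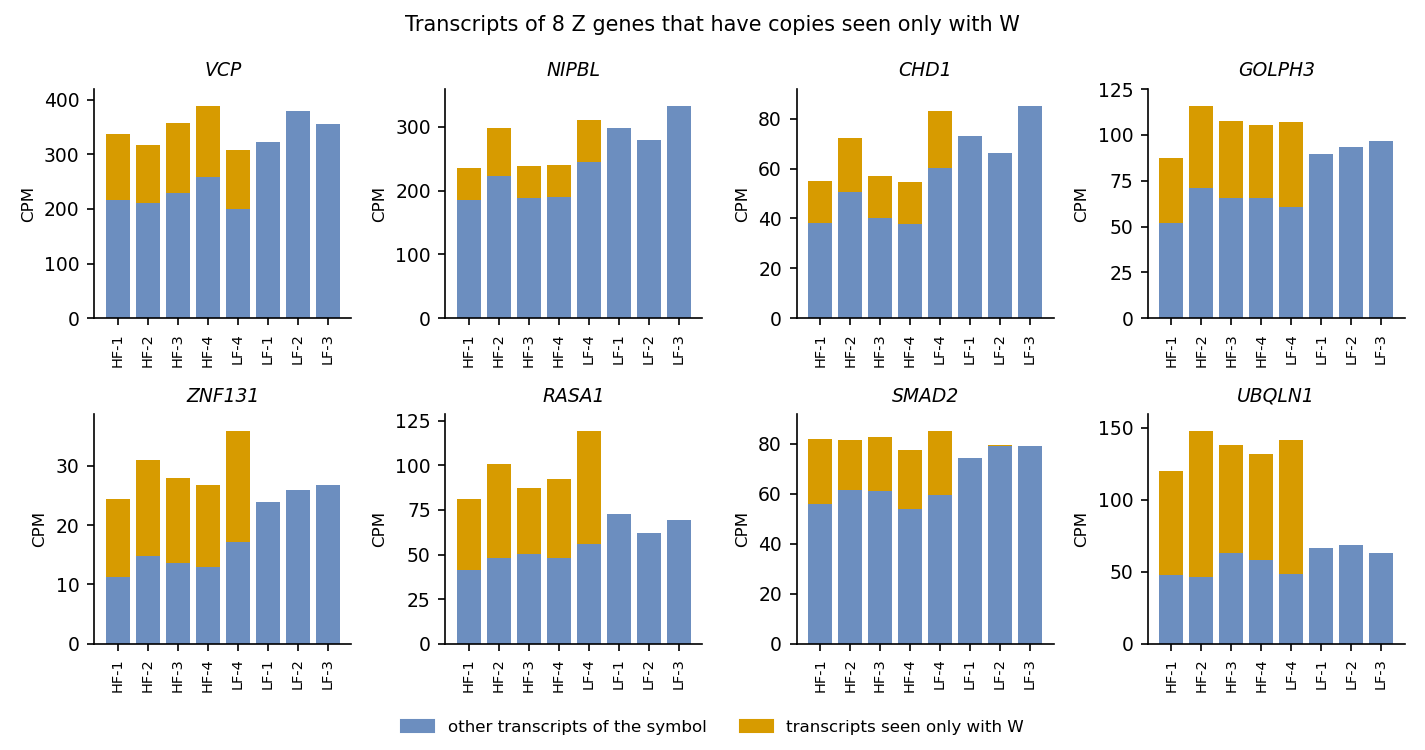
Level of 8 Z genes in each library, in CPM of the mRNA table, divided into transcripts seen only with W (orange) and the other transcripts of the same symbol (blue). In VCP the blue part lies between 200.2 and 259 in the 5 libraries with W transcripts and between 322 and 379 in the other 3, while the full bars overlap.

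Of the 11 genes that passed as higher with W transcripts, 9 carried transcripts seen only with W. On Z these were HNRNPK, SUB1, IER3IP1, RPL37, TESK1 and UBQLN1. FAM214B, ERV3-1 and ERVK-25, the last 2 derived from endogenous retroviruses, were not placed. HNRNPK, an RNA-binding protein of nuclear ribonucleoproteins, stood at 23.0, 24.0, 25.6 and 25.4 CPM in HF, 28.3 in LF-4 and 4.98, 4.31 and 3.62 in the 3 without. SUB1, a transcriptional coactivator, stood at 12.2, 16.1, 18.1 and 15.4 CPM in HF, 14.5 in LF-4 and 0.321, 0 and 0.0464 in the 3 LF libraries without W transcripts. TESK1, a kinase of the actin cytoskeleton, was between 1.42 and 2.58 CPM in the 5 libraries and at 0 in the other 3. In the libraries with W transcripts, those seen only with W made up at least 97.8% of IER3IP1, 99.1% of SUB1 and 100% of TESK1. In RPL37 they made up at least 93.0%. The sums of IER3IP1, SUB1 and TESK1 hold few counts of other transcripts in any library, so they say little about the level of the Z copies. The other transcript of RPL37 averaged 5.25 CPM of the mRNA table with and 8.66 without W transcripts. LF-4 held 8.15 CPM of it, and the sides overlapped. Leaving out 1 library at a time, HNRNPK passed throughout. SUB1 and IER3IP1 did not pass without LF-3. RPL37, FAM214B and UBQLN1 did not pass without LF-1, LF-2 or LF-3, and ERV3-1, ERVK-25 and TESK1 without any of these or HF-1. Since these transcripts go with the W rows that chose the libraries, these 9 describe the split and support nothing further. When these transcripts were left out of the sums, an alternative chosen after seeing the data, edgeR called 0 genes (803 at an unadjusted p under 0.05), and the smallest adjusted p was 0.0696. DESeq2 called 140 on the sums with them.

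Of 34 genes listed as having W copies in birds, 28 were tested, 27 of them placed on Z here. Of these, 2 were higher (HNRNPK and SUB1, where 0.103% of all genes were) and 0 lower. Both passed through transcripts seen only with W, so this count describes the split too. Without those transcripts HNRNPK did not pass (edgeR adjusted p = 0.591) and SUB1 had no tested sum. The median log2 fold change of the 28 was 0.111, with 17 above 0. It was 0.0149 over all genes tested and -0.242 over all 478 on Z. Transcripts seen only with W are part of some of the 28 sums, so this median describes the split too. The list was drawn up with earlier results of these data known.

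Away from the sex chromosomes few genes followed the split. Of 9005 genes placed elsewhere 3 passed, 2 higher (PSMA4 and DNASE1L3) and 1 lower (ACTA2). Of 1205 that could not be placed, GPR124 was the single one to pass without a transcript seen only with W, and it was lower. These 1205 may lie on any chromosome, Z and W included. No overlap was seen in 351 of the 9005 (3.9%), 186 higher and 165 lower. These calls rest on a narrow margin, since PSMA4, DNASE1L3 and GPR124 had an adjusted p of 0.0696 and ACTA2 of 0.119 when transcripts seen only with W were left out of the tested sums.

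PSMA4 encodes an alpha subunit of the proteasome core. It stood at 409, 368, 439 and 419 CPM in HF-1 to HF-4, 397 in LF-4 and 182, 231 and 191 without W transcripts. LF-4 lay within the HF range, and both lay well above LF-1 to LF-3. The log2 fold change was 1.01 ± 0.134 (SE), 2.02-fold higher with W transcripts (edgeR adjusted p = 0.0218), and 0.98 ± 0.187 for LF-4 against LF-1 to LF-3 (edgeR adjusted p = 0.173). DNASE1L3, a secreted endonuclease that degrades chromatin outside cells, stood at 57.5, 68.3, 52.5 and 53.6 CPM in HF, 49.5 in LF-4 and 22.7, 25.1 and 27.9 in the 3 without. Here LF-4 was just below the HF libraries and the sides did not overlap. Its log2 fold change was 1.16 ± 0.149 (SE), 2.23-fold higher (edgeR adjusted p = 0.0203). PSMA4 did not pass in limma on FPKM (adjusted p = 0.105 and 0.0893 with pseudocounts of 1 and 0.1). Leaving out 1 library, PSMA4 passed only without HF-2 or LF-4, and DNASE1L3 only without HF-2, HF-3 or LF-4.

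GPR124, an adhesion receptor of endothelial cells and pericytes, stood at 15.5, 21.2, 12.5 and 15.6 CPM in HF, 9.57 in LF-4 and 64.1, 41.0 and 58.1 in the 3 LF libraries without W transcripts. LF-4 was the lowest of all 8. The gene was 3.66-fold lower with W transcripts, at a log2 fold change of -1.87 ± 0.247 (SE, edgeR adjusted p = 0.0218), and passed only without HF-2 or LF-4 when 1 library was left out. ACTA2, the actin of smooth muscle, stood at 147, 186, 215 and 221 CPM in HF, 172 in LF-4 and 511, 379 and 378 without W transcripts. It was 2.25-fold lower, at -1.17 ± 0.171 (SE, edgeR adjusted p = 0.0464), and passed only without LF-4 when 1 library was left out. TTC37, of the SKI complex that feeds messenger RNA to the exosome, could not be placed and may lie on Z. Its log2 fold change was -0.74 ± 0.13. The orphan receptor GPR20 was low, at 0.207 to 0.322 CPM in HF, 0.406 in LF-4 and 1.61, 2.15 and 1.30 in the 3 without. It met the low-count filter through these 3 libraries alone, so its p is a description only. Neither TTC37 nor GPR20 passed (edgeR adjusted p = 0.103 and 0.0754).

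Other smooth muscle genes stood with ACTA2. MYH11, the smooth muscle myosin heavy chain, was at 165, 209, 128 and 195 CPM in HF, 152 in LF-4 and 338, 367 and 366 in the 3 LF libraries without W transcripts (log2 fold change -1.07 ± 0.166, edgeR adjusted p = 0.0611). TAGLN, an actin-binding protein of smooth muscle, was at 20.6, 26.3, 25.2 and 31.6 CPM in HF, 17.8 in LF-4 and 57.5, 33.6 and 33.2 without. In all 3 the sides did not overlap and LF-4 was within or below the HF range. MYOCD, a coactivator of smooth muscle genes, pointed the other way at 0.61 ± 0.401, with LF-4 the lowest library. Of 7 smooth muscle markers 4 were tested, 1 lower and 0 higher past the threshold, with a median of -0.919. Over all genes 0.0374% were called lower and 2.88% were lower without overlap. Their summed level was between 341 and 458 CPM in HF, 348 in LF-4 and between 783 and 914 in LF-1 to LF-3. In bulk tissue fewer cells of a type and less RNA per cell cannot be told apart.

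**Figure D5:**
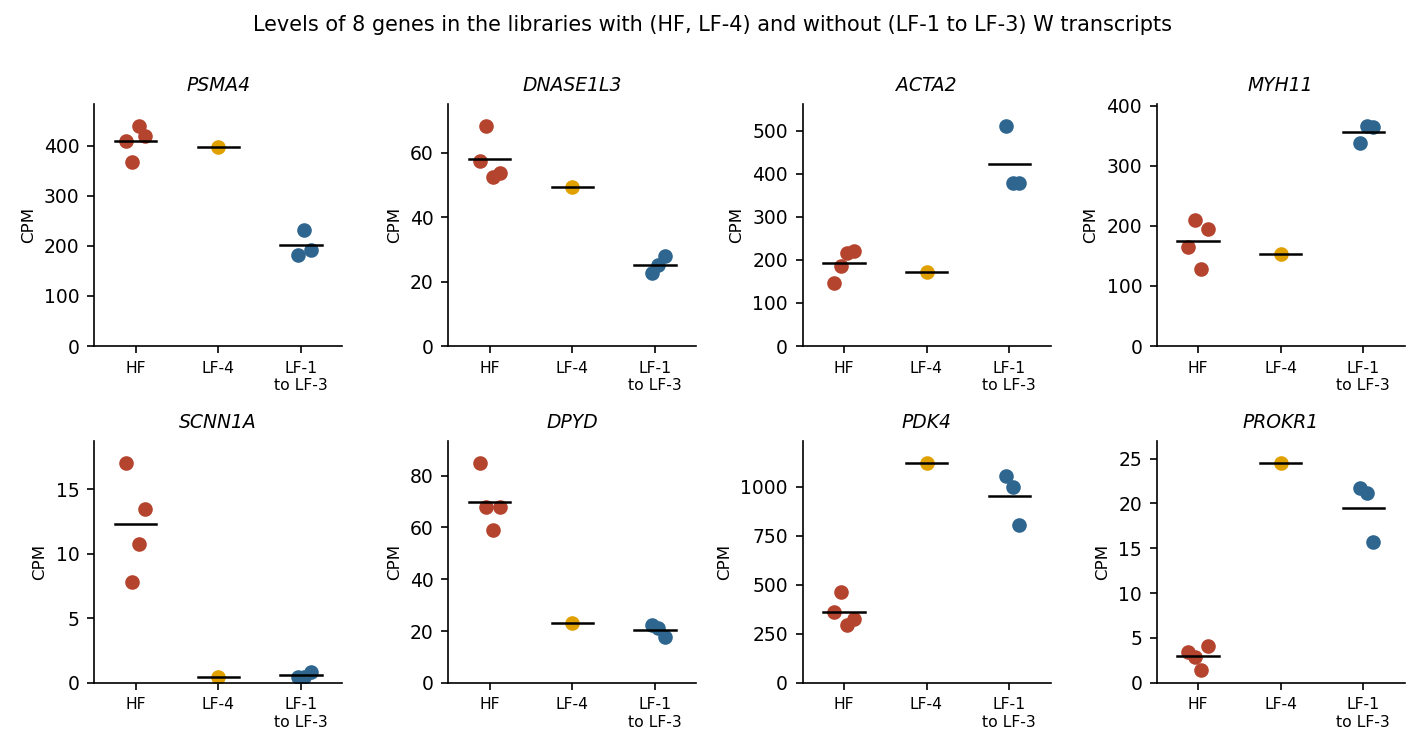
Level of 8 genes in TMM-scaled CPM, each point a library and each line the mean, for HF, LF-4 and LF-1 to LF-3. In the upper row LF-4 lies with or near HF (PSMA4 397, DNASE1L3 49.5, ACTA2 172 and MYH11 152 CPM). In the lower row it lies with LF-1 to LF-3 (SCNN1A 0.446 and DPYD 23.0 CPM) or just above them (PDK4 1122 and PROKR1 24.5 CPM).

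LF-4 alone, set against LF-1 to LF-3, differed in 5 of 10690 genes (0.0468%), all 5 higher in LF-4, in a fit where the single library was assumed to vary like the others. Of these, 4 were HNRNPK, SUB1, IER3IP1 and RPL37, which carry transcripts seen only with W. CACNB4, a calcium channel subunit on chromosome 7, was the other. It stood at 254 CPM in LF-4, between 6.58 and 14.7 in HF and between 9.29 and 15.4 in LF-1 to LF-3, so it marks this library and not the split. The count was 3 without HF-4 and 2 without LF-3.

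HF against LF-4, all of which hold W transcripts, differed in 123 genes (1.15%), 48 higher and 75 lower in HF. Of the Z genes without W copies 5 were lower and 0 higher. Of genes elsewhere 45 were higher and 62 lower. Leaving out 1 library at a time brought the count to 4 (HF-1), 54 (HF-2), 24 (HF-3), 5 (HF-4), 66 (LF-1), 64 (LF-2) and 32 (LF-3).

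For 8 genes that an earlier analysis called between HF and LF, LF-4 is shown beside its fat group. They were picked for a difference in which LF-4 counted as LF, so where LF-4 lies, and the test of HF against LF-4, were in large part fixed by that choice. SCNN1A, which forms part of an epithelial sodium channel, stood at 17.0, 7.81, 10.8 and 13.5 CPM in HF, 0.446 in LF-4 and 0.482, 0.438 and 0.834 without W transcripts. LF-4 was inside the range of the other LF libraries. SCNN1A met the low-count filter only with the help of the HF libraries, so its p-values are a description only. The log2 fold change of HF against LF-4 was 4.77 ± 0.674 (SE, edgeR adjusted p = 0.0281), and that of LF-4 against LF-1 to LF-3 was -0.39 ± 0.613. DPYD, the first enzyme of pyrimidine breakdown, stood at 85.0, 68.0, 58.9 and 67.8 CPM in HF, 23.0 in LF-4 and 22.3, 21.2 and 17.5 in the 3 without. LF-4 was just above the other LF libraries and below all HF ones. HF was at 1.61 ± 0.257 against LF-4 (edgeR adjusted p = 0.0356), and LF-4 at 0.18 ± 0.236 against LF-1 to LF-3.

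PDK4, a kinase that restrains pyruvate dehydrogenase, stood at 359, 463, 295 and 323 CPM in HF, 1122 in LF-4 and 1052, 999 and 806 in the 3 LF libraries without W transcripts. PROKR1, a prokineticin receptor, stood at 3.40, 2.92, 1.44 and 4.05 CPM in HF, 24.5 in LF-4 and 21.7, 21.1 and 15.7 without W transcripts. In both LF-4 was the highest library. HF fell below LF-4 by a log2 fold change of -1.64 ± 0.243 in PDK4 and -3.05 ± 0.396 in PROKR1 (edgeR adjusted p = 0.0309 and 0.0242), and LF-4 was at 0.24 ± 0.273 and 0.33 ± 0.45 against LF-1 to LF-3. STC2, a stanniocalcin, was the exception. It stood at 0.166, 0.146, 0.179 and 0.230 CPM in HF, 1.54 in LF-4 and 8.12, 5.02 and 8.99 in the 3 without. STC2 met the low-count filter through the LF libraries alone, so its p-values are a description only. LF-4 lay between the groups, at -3.04 ± 0.456 for HF against LF-4 (edgeR adjusted p = 0.0309) and -2.25 ± 0.53 for LF-4 against LF-1 to LF-3 (edgeR adjusted p = 0.203).

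Of 7 fits that left out a library and kept LF-4, PROKR1 passed in 5, SCNN1A in 4, PDK4 in 3, STC2 in 1 and DPYD in 0. Among the remaining genes of that earlier analysis INSIG1, a sterol-dependent brake on SREBP processing, stood at 759, 729, 1107 and 907 CPM in HF, 352 in LF-4 and 306, 445 and 310 in the 3 LF libraries without W transcripts. PLIN3, a lipid droplet coat protein, stood at 1759, 1214, 2307 and 2355 CPM in HF, 666 in LF-4 and 909, 813 and 590 in the other 3. APOA1, an apolipoprotein that carries cholesterol in HDL, stood at 3199, 1408, 1881 and 4352 CPM in HF, 12207 in LF-4 and 8735, 9448 and 10859 without W transcripts. None of the 3 passed in HF against LF-4 (edgeR adjusted p = 0.0868, 0.111 and 0.0656), though in each LF-4 stood with the LF libraries. In the split of 5 against 3, edgeR passed 0 of the 8 genes and 0.14% of all genes. DESeq2 passed SCNN1A, STC2, DPYD and INSIG1 there, at adjusted p of 9.09e-05, 9.2e-05, 0.00161 and 0.0397. It called 140 of all 10690 genes. The values of SCNN1A and STC2 are a description only, given how they met the low-count filter.

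Genes of sex determination and of the gonad gave little to compare. Of 13 listed, 4 were tested and 0 passed, and DMRT1, AMH and SOX9 were not among those tested. Over all genes 0.14% passed in the split, so a count of 0, here and in the lists below, says nothing about the members. WT1, a transcription factor of the gonadal ridge and mesothelium, stood at 3.77, 1.97, 2.83 and 1.61 CPM in HF, 3.69 in LF-4 and 4.26, 6.36 and 4.54 in the 3 without (edgeR adjusted p = 0.61). The sides did not overlap. RSPO1, a Wnt agonist of ovary development, was at 0.70 ± 0.77, with LF-4 the lowest library at 0.162 CPM. Of 12 markers of gonad and germ cells 2 were tested, with a sum of 0.995 to 5.47 CPM in HF, 2.43 in LF-4 and 0.884 to 2.41 in LF-1 to LF-3. Of 8 adrenal and steroidogenic markers 1, STAR, was tested, at 2.44 to 3.94 CPM in HF, 3.45 in LF-4 and 4.11 to 5.30 without.

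Of 25 genes of steroid receptors and steroid metabolism 17 were tested and 0 passed in the split (0.14% of all genes did), with a median of 0.0287. ESR1, the estrogen receptor alpha, stood at 43.6, 35.4, 63.7 and 42.0 CPM in HF, 47.0 in LF-4 and 44.5, 42.6 and 49.3 in the 3 LF libraries without W transcripts, with the sides overlapping. GREB1, an estrogen-induced cofactor, stood at 1.16, 0.657, 3.14 and 13.2 CPM in HF, 0.973 in LF-4 and 0.402, 0.842 and 0.417 without. Its log2 fold change was 2.74 ± 1.07, with HF-4 the highest library. HSD17B4, a peroxisomal enzyme of fatty acid oxidation on Z, had a log2 fold change of -0.42 ± 0.176. Among 6 genes of egg yolk that estrogen drives in the liver, 2 were tested. APOB stood at 0 to 4.08 CPM in HF, 8.31 in LF-4 and 0.0464 to 0.539 without, and RBP4 had a log2 fold change of -0.19 ± 0.482. VTG1 and VTG2 were not among the genes tested.

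Of 17 genes of the growth hormone and IGF axis 16 were tested, with a median of -0.349 and 11 below 0. In edgeR 0.14% of all genes passed in the split, and 0 of the 16 did. DESeq2 called 2 of them lower, STC2 and IGFBP5, where 87 of all 10690 genes were called lower. STC2 was also among the genes picked from the earlier analysis of HF and LF. It met the low-count filter through the LF libraries alone, so its call is a description only. IGFBP5, a carrier of insulin-like growth factors, stood at 30, 20.7, 18.3 and 30.2 CPM in HF, 19.0 in LF-4 and 51.9, 41.6 and 38.9 without W transcripts, with no overlap (log2 fold change -0.90 ± 0.21, edgeR adjusted p = 0.244). In the prolactin receptor PRLR, on Z, the sides did not overlap either, at 21.6 to 26.9 CPM in HF, 15.9 in LF-4 and 12.9 to 15.9 in LF-1 to LF-3. Its log2 fold change of 0.66 ± 0.191 did not pass.

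Of the listed genes of lipid metabolism 0 passed in the split in edgeR, where 0.14% of all genes did. Of 20 cholesterol synthesis genes 15 were tested, 14 above 0, with a median of 0.693 in the split, -0.23 in LF-4 against LF-1 to LF-3 and 0.856 in HF against LF-4. NSDHL, a sterol demethylation enzyme, stood at 3.48 to 6.15 CPM in HF, 3.77 in LF-4 and 1.82 to 2.01 without (edgeR adjusted p = 0.211, DESeq2 adjusted p = 0.00384). Of 18 genes of fatty acid and triglyceride synthesis 13 were tested, with a median of 0.303, and ELOVL6, a fatty acid elongase, was at 0.99 ± 0.456. Of 18 genes of lipolysis and lipid droplets 14 were tested, with a median of 0.158. CIDEA, a lipid droplet protein, stood at 6562, 4105, 3502 and 5138 CPM in HF, 3725 in LF-4 and 1579, 3128 and 2625 in the 3 LF libraries without W transcripts, with no overlap (edgeR adjusted p = 0.475).

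Of 20 adipogenic regulators and adipokines 16 were tested and 0 passed (0.14% of all genes did), with a median of -0.156. CEBPD, an early adipogenic factor, stood at 4.43, 6.13, 2.92 and 3.08 CPM in HF, 7.30 in LF-4 and 9.80, 13.5 and 9.73 without W transcripts. KLF4, a zinc-finger factor on Z, was at 7.04 to 9.56 CPM in HF, 15.0 in LF-4 and 14.4 to 21.8 without. Of 41 cytosolic ribosomal protein genes 37 were tested. In the split their median was 0.0076, with 1 higher, RPL37, in edgeR. In DESeq2 RPS23 was also called lower, where 87 of all 10690 genes were. LF-4 stood apart here, at a sum of 16910 CPM against 10010 to 11260 in HF and 10920 to 11650 in LF-1 to LF-3, and in HF against LF-4 all 37 were below 0 and 6 passed as lower, where 0.702% of all genes did. Of 20 nuclear genes of mitochondria, listed on or off Z, 18 were tested, 5 of them on Z. In edgeR 0.14% of all genes passed, and 0 of the 18 did. Their median was -0.138 with 14 below 0, and it was -0.0744 over those not placed on Z. DESeq2 called 1 lower, MRPS30 (adjusted p = 0.00622), where 87 of all 10690 genes were called lower. MRPS30 could not be placed and may lie on Z. NDUFS4, a complex I subunit on Z, stood at 31.7, 22.8, 28.0 and 26.7 CPM in HF, 42.2 in LF-4 and 46.4, 55.7 and 47.4 without, and MRPS30, of the mitochondrial ribosome, had a log2 fold change of -0.78 ± 0.164.

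The tissue carried its defining markers in all libraries. The sum of 9 tested adipocyte markers of 10 was 31500 to 46520 CPM in HF, 88180 in LF-4 and 45590 to 65770 in LF-1 to LF-3. Where 0.14% of all genes passed, 0 of the 9 did. Their median log2 fold change was -0.0358 in the split. In LF-4 against LF-1 to LF-3 it was 0.1, with 6 above and 3 below 0, so the sum of LF-4 does not stand for most of them. Of the other marker lists none held a gene past the threshold in the split in edgeR, apart from ACTA2. DESeq2 called ACTA2 and MYH11 among all marker lists, both lower, where 87 of all 10690 genes were called lower. All 10 tested endothelial markers of 11 were below 0, with a median of -0.379 and sums of 3434 to 7113 CPM in HF, 6192 in LF-4 and 5901 to 8285 without. All 12 tested macrophage markers of 15 were above 0 with a median of 0.303, against -0.235 in LF-4 over LF-1 to LF-3, and sums of 1685 to 2528 CPM in HF, 1821 in LF-4 and 1286 to 2192 without. Lymphocyte markers (9 of 11 tested) had a median of 0.564 in the split, -0.41 in LF-4 against LF-1 to LF-3 and 0.982 in HF against LF-4. Cell division genes (8 of 10) had 0.366, -0.933 and 1.66, so that in both lists LF-4 did not go with HF. Stromal and matrix markers (11 of 12) had -0.0589, with LF-4 the lowest library at 7553 CPM against 12630 to 24340. Erythroid markers (3 of 9) had 0.0453, liver and gut markers (4 of 8) 0.513 and handling genes (11 of 15) -0.495. Skeletal muscle markers (4 of 10) had -2.35, where LF-3 stood at 968 CPM and the others between 4.58 and 138. The mitochondrial genome list matched no symbol as written. The part of cell composition in the differences above was not tested.

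As mRNA transcripts in place of sums, 43 of 25794 passed (0.167%), 40 higher and 3 lower, and 36 of the 43 were seen only with W. Apart from those, PSMA4 and DNASE1L3 had a transcript that was higher, and FBXO21, ERAP1 and MYH11 one that was lower with W transcripts. The other 2, higher with W transcripts, were one of SPINZ, a spindlin symbol that is not placed and has other transcripts placed on W, and an assembled model without a symbol.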

How the data were processed

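Total RNA of 8 abdominal fat samples was reverse transcribed and sequenced by Illumina, per the labels' protocols. The authors deposited estimated counts and FPKM per library for mRNA and for lncRNA transcripts, per the file headers. The submitters' processing notes name Bowtie2 2.2.8 and TopHat2 2.1.1 with no role. The sources used here give no quantifier, genome build or strandedness, so overlapping and antisense genes cannot be told apart. Estimated counts per library summed to 12696240 to 30836178 (mRNA) and 92196 to 175194 (lncRNA).

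The members and lists were chosen with earlier results of these data known. Counts were summed per symbol over mRNA rows, W-described rows apart, giving 13213 symbols, and rounded. The 2137 rows without a symbol held 0.839% to 0.965% of counts and stayed out of sums. Tests used edgeR 4.0.16 (R 4.3.3), its quasi-likelihood test with TMM scaling and filterByExpr, and Benjamini-Hochberg adjustment over all genes at 0.05. LF-4 was contrasted in a fit of 3 groups (HF, LF-4, LF-1 to LF-3) that share one spread. lncRNAs were scaled with both tables together. CPM values are TMM-scaled unless stated, and each SE was derived from the F statistic. Z levels used genes with a mean of at least 1 CPM and an offset of 0.1 CPM. Scripts were tested on simulated data.

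Genes were named by rule: the 10 largest rises and falls past the threshold without overlap, on the sex chromosomes and elsewhere apart, filled to 5 by the smallest p; up to 4 members past the threshold of each of 11 lists, or the 2 with the smallest p; 5 lncRNAs per direction, of which few are printed; and 8 genes of an earlier analysis. Other genes were chosen after their values were seen, among them CACNB4, HOMER1, GHR, ESR1, PRLR and those of the marker lists. Chromosomes and order along Z come from RefSeq's table of assembly IASCAAS_PekinDuck_T2T. Since the files' build is unknown, no coordinates are given. Alternatives were other scalings, no low-count filter, DESeq2 1.42.0, limma 3.58.1 on log2(FPKM + 1) and log2(FPKM + 0.1) for genes averaging 0.5 FPKM or more, transcripts, a 2-fold minimum, the replicate block and leaving out each library. A few genes that the rule names, or that bound a bin, are not reported here.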

Additional observations from a re-analysis of the deposited data

Results flagged for a closer look

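Among the 5 libraries with W transcripts, 1 library stood apart in 9 of 47 named items by Dixon's test, whose critical value is 0.71 for 5 samples and which chance passes in about 1 in 20 groups. In 7 of the 9 that library was LF-4. Of these, APOA1, PDK4, PROKR1 and STC2 had been picked for a difference in which LF-4 counted as LF. Their standing apart was in large part fixed by that choice, so the 9 of 47 cannot be judged against the chance rate. APOA1 was at 12210 CPM in LF-4 and at 1408 to 4352 in HF. PDK4 was at 1122 CPM in LF-4 and 295 to 463 in HF, and PROKR1 at 24.54 against 1.44 to 4.05. STC2 was at 1.541 CPM in LF-4 and 0.146 to 0.230 in HF. RPS23 was at 55.93 CPM in LF-4 and 26.5 to 33.3 in HF. RPL37, with transcripts seen only with W, was at 148.7 CPM in LF-4 and 64.8 to 81.4 in HF, and IER3IP1, also with such transcripts, at 6.246 against 3.58 to 4.31. In the other 2, GREB1 was at 13.16 CPM in HF-4 and 0.657 to 3.14 in the rest, and TRIM23 at 25.04 CPM in HF-3 and 28.2 to 28.6 in the rest.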

How the results depend on the processing

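The count of 15 genes in the split of 5 against 3 was 0 with the replicate block (604 at an unadjusted p under 0.05), 140 with DESeq2, 43 as mRNA transcripts, 0 without the transcripts seen only with W (an alternative added after seeing the data) and 1 to 91 leaving out a library. It was 13 to 18 under the other scalings, no filter, limma on FPKM and a 2-fold minimum. In deviations from their group mean, the same-numbered HF and LF libraries correlated at 0.000371, -0.209, -0.147 and 0.0133. Pairs of different number lay between -0.0856 and 0.189. No pairing by number was seen in these values, which are too few to exclude it. HF-4 and LF-4 share a number and both hold W transcripts. Fold changes with the block therefore rest on HF-1 to HF-3 against LF-1 to LF-3, where fat group and W transcripts cannot be told apart. The block also fits more terms to the same 8 libraries. How far each of these bears on the lost calls was not tested. The 5 genes of LF-4 against LF-1 to LF-3 were 2 to 6 leaving out a library. The 123 of HF against LF-4 were 78 with upper-quartile scaling and 4 to 66 leaving out a library. The 26 lncRNAs were 8 with the block, 73 without the filter and 19 to 26 leaving out a library. The Z median of -0.2424 was -0.2815 with fat group as a covariate, which leaves LF-4 against LF-1 to LF-3, -0.2432 with the block and -0.2757 to -0.2095 leaving out a library. Features seen on one side only were 100 with and 23 without W transcripts, and 65 and 8 at 30 counts, a rule that fewer features can meet. Over refits of 45 named genes 623 kept their side of the threshold, 91 lost it, 34 gained it and 2 reversed, RPL37 to -0.7075 and UBQLN1 to -0.3308, both without the transcripts seen only with W. The cause of these shifts was not tested. Low counts limit the genes near 1 CPM.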
